A study of Mus musculus with 12 samples.

Results

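The collagen genes of mouse lung were described across 12 single-colour Agilent 4x44K arrays of whole-lung RNA, 1 per mouse. Members were the genes whose name in the scanner files begins with Col, followed by a chain number in the pattern of Col1a1. The array held 40 such genes on 81 probes. The scanner software marks spots that stand well above background, and a probe needed that mark on 4 or more of 12 arrays. This kept 63 probes of 36 genes, among 19823 genes in all. Col9a1, Col10a1, Col19a1 and Col28a1 had no kept probe. Just inside that limit lay a Col5a3 probe on 4 arrays and the Col11a1 probe on 5, and just outside it lay a Col3a1 probe on 3 arrays and a Col10a1 and a Col16a1 probe on 2 each. Genes listed under older names without the Col symbol (Col6a4, Col6a6 and Col26a1) fell outside the rule.

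The 3 groups were wild-type (WT) mice kept in room air, WT mice exposed to cigarette smoke, and Rora mutant mice exposed to cigarette smoke, with 4 mice each. Rora encodes RORα, a transcription factor of the nuclear receptor family. The labels give every mouse as male, of the C57Bl/6 strain and 12 weeks old, and smoke from 1R3F research cigarettes was given on 5 days a week for 4 months, a span longer than the stated age. The Rora allele is not stated in the sources used here. No mutants in room air are analysed here, and an effect of the genotype cannot be told apart from one that appears under smoke alone. The replicates of a group are labelled biological replicates.

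Collagens are proteins of the extracellular matrix in which 3 chains wind into a triple helix. Fibrillar collagens such as types I and III form the tensile fibres of airway walls, vessels and alveolar septa. Type IV collagens form the sheet of the basement membrane on which the alveolar epithelium and the capillary endothelium rest, and type VI forms beaded filaments around cells. Smaller classes decorate fibrils, anchor epithelia or span the cell membrane. Fibroblasts, smooth muscle cells, endothelium and epithelium each make part of this repertoire. In whole-lung RNA, fewer cells of a type and less RNA per cell cannot be told apart.

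Several of these genes lie side by side in the genome. Col4a1 with Col4a2, Col4a3 with Col4a4, Col4a5 with Col4a6, Col6a1 with Col6a2, and Col3a1 with Col5a2 were the 5 pairs of members next to each other on a chromosome. RefSeq promoter windows (GRCm38.p6, 250 bases before to 50 bases after a transcript's start) matched 28 of the 36 genes, with 30 windows. The windows of Col4a1 and Col4a2 run in opposite directions and share 78 bases, chr8:11312777-11312854, a stretch that holds the start of each transcript. They are shown because both genes stood higher in mutant smoke than in WT room air. The shared stretch is in capitals, each sequence 5′ to 3′ on its gene's strand.
Col4a1, chr8:11312777-11313076, minus strand: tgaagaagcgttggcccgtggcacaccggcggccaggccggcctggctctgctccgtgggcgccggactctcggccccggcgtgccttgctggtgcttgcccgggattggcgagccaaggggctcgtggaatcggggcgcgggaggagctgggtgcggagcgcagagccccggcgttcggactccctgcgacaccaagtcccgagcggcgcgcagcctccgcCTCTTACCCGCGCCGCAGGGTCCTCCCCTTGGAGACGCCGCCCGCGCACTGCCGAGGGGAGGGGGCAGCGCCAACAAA
Col4a2, chr8:11312555-11312854, plus strand: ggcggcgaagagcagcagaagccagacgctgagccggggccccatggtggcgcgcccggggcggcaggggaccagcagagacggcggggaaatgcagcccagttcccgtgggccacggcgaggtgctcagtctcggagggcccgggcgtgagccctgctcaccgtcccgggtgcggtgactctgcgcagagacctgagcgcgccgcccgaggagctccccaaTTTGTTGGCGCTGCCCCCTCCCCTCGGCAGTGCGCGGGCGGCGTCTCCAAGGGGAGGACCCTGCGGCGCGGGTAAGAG

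Each window was searched on both strands for AGGTCA, the half-site that ROR and many other nuclear receptors bind. It stood in 6 of the 30 collagen windows (20.0%) against 16.3% of all 32851 windows searched. The windows of a single chromosome were left out of this and the other motif counts. The 6 windows with the half-site belonged to Col4a4, Col7a1, Col11a1, Col20a1, Col23a1 and Col24a1. Col4a4 and Col7a1 are shown because they were called higher in mutant smoke, Col7a1 against both WT groups and Col4a4 against room air alone. Against WT smoke Col4a4 changed by 0.16 and did not pass. The half-site or its reverse complement is in capitals, at position -90 in Col4a4 and -140 in Col7a1 relative to the start.
Col4a4, chr1:82586800-82587099, minus strand: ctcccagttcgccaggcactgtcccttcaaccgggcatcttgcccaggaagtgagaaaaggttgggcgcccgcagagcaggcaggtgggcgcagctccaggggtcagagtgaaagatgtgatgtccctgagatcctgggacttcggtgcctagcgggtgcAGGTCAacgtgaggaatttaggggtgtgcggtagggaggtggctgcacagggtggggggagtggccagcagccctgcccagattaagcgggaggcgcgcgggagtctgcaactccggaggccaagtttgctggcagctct
Col7a1, chr9:108953336-108953635, plus strand: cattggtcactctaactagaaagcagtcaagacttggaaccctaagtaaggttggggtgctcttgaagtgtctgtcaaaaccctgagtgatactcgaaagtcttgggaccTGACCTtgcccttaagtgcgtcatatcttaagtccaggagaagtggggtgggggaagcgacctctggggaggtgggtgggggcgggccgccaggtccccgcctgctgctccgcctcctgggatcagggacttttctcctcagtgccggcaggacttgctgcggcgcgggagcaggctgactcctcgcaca
The window of Col8a1, the collagen with the largest difference between mutant and WT smoke, did not hold these letters, nor did those of Col6a1, Col6a2 and Col17a1.
Col8a1, chr16:57754688-57754987, minus strand: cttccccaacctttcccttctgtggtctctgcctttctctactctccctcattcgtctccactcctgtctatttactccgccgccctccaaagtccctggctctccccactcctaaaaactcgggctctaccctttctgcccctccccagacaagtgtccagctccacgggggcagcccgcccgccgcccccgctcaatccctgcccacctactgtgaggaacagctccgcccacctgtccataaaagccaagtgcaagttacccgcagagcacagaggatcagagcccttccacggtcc
Of other short motifs, CCAAT stood in 36.7% of the collagen windows and 37.4% of all windows, TATAAA in 13.3% and 13.6%, and GCGTG, the core of the xenobiotic response element, in 26.7% and 32.4%. A match is a string of letters and no evidence of binding.

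The labels and arrays were checked before the comparisons. Spots well above background made up 70.1% to 74.8% of an array and the 75th percentile of the signal ran from 785 to 1313 intensity units, and WT smoke replicates 4 and 2 held both extremes. Levels below are log2 of the scanner's processed signal over that array's 75th percentile. The level of Rora was 1.18 ± 0.04 (SD, n = 4) in WT smoke and -1.01 ± 0.10 in mutant smoke, a log2 difference of -2.20 (limma adjusted p = 1.16e-09). Sex-linked RNA in the room-air group went against its label. Xist had a level of 4.04 ± 0.07 in WT room air and -5.39 ± 2.09 in WT smoke, and Ddx3y was detected on 0 of 4 arrays in room air and on each of the 8 smoke arrays. Sex-linked signal and smoke exposure therefore coincided, and in both comparisons with room air they cannot be told apart. Between mutant and WT smoke the Ddx3y difference was 0.05 (adjusted p = 0.965).

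The comparison of mutant with WT smoke asks what the Rora mutation does to the smoke-exposed lung. In it, 5 collagen genes rose (Col6a1, Col6a2, Col7a1, Col14a1 and Col17a1) and 2 fell (Col8a1 and Col12a1). That is 19.4% of the 36, where 6.04% of all genes passed (2.48% higher, 3.56% lower); a gene passed at an adjusted p (Benjamini-Hochberg, limma) under 0.05. The median log2 change of the collagens was 0.15, against 0.00 over all genes, and 27 of the 36 were higher in the mutants. In 12 collagen genes (33.3%) the 4 mutant arrays did not overlap the 4 WT smoke arrays, against 13.4% of all genes. Of these 12, 10 were higher and 2 lower in the mutants, where 6.55% and 6.85% of all genes were.

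Mutant smoke against WT room air compares the lungs that differ in both genotype and exposure. Here 9 collagen genes rose, among them 5 of the 6 type IV chains, and 3 fell (Col8a1, Col15a1 and Col22a1). These 12 genes are 33.3% of the collagens, against 16.7% of all genes (6.67% higher, 10% lower), but the median change was 0.04, near the -0.01 of all genes. In 10 collagen genes (27.8%) the arrays did not overlap, against 21% of all genes; 7 were higher and 3 lower, against 9.3% and 11.7%. Both mutant comparisons use the same 4 mutant arrays.

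WT smoke against WT room air asks what smoke does to the normal lung. No collagen gene rose and 3 fell, Col2a1, Col11a2 and Col14a1. This share of 8.33% stands beside 4.86% of all genes (2.31% higher, 2.55% lower), and the 3 adjusted p-values lay between 0.0458 and 0.0478. The median change was -0.11, against -0.01 over all genes, and 23 of the 36 were lower in smoke. Arrays did not overlap in 7 collagen genes (19.4%), against 12.9% of all genes. Of these 7, 1 was higher and 6 lower in smoke, where 5.98% and 6.91% of all genes were. The 4 WT smoke arrays serve in this comparison and in that of mutant with WT smoke, so the values of these comparisons are not independent.

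**Figure D1:**
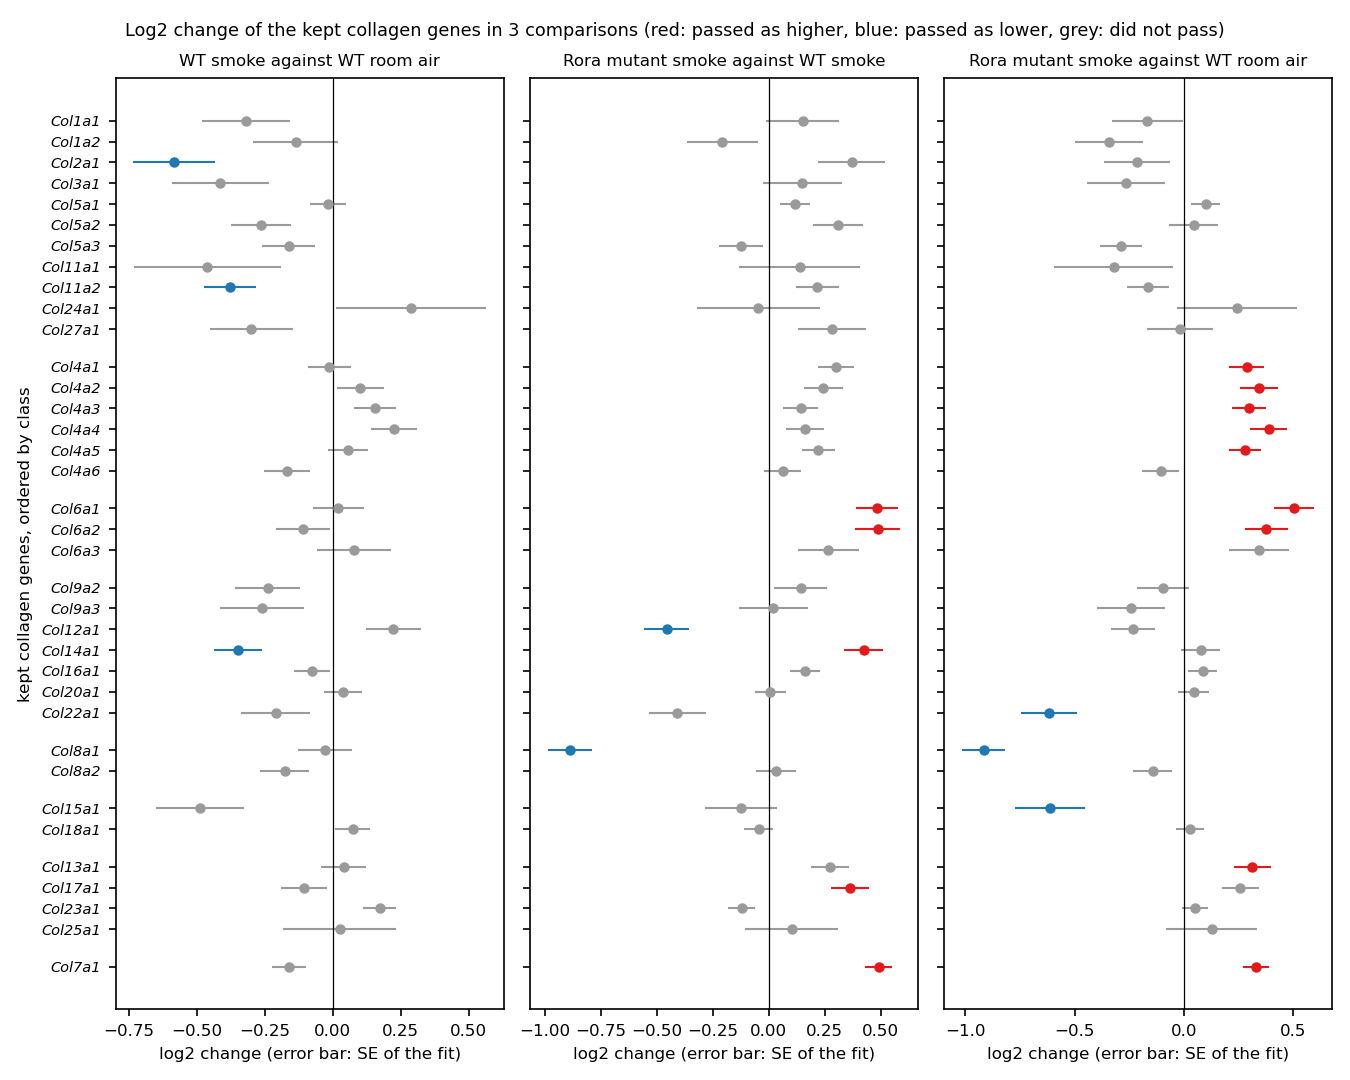
Log2 change of each of the 36 kept collagen genes (rows, by class) in the 3 comparisons, with points for the fitted change and bars for its SE; red and blue points passed as higher and lower. The coloured points are 3 in WT smoke against WT room air, 7 in mutant against WT smoke and 12 in mutant smoke against WT room air, and Col8a1 lies farthest to the left in both mutant panels.

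Scaling and background correction changed some of these calls. With the arrays scaled to their median in place of the 75th percentile, the genes passing as higher and lower became 687 and 530 (main 492 and 706) in mutant against WT smoke, 2962 and 1403 (main 1323 and 1990) in mutant smoke against room air, and 592 and 351 (main 457 and 506) in WT smoke against room air. Collagen calls were then 6 higher and 2 lower, 11 and 3, and 0 in the same order. With normexp background correction of the raw spot signals in place of the scanner's own correction, 28 genes of all passed in mutant against WT smoke, and among the collagens Col8a1 alone. In mutant smoke against WT room air 181 genes passed, again with Col8a1 as the single collagen, and in WT smoke against room air no collagen passed, among 53 genes in all. The higher and lower calls with normexp were 12 and 16, 89 and 92, and 40 and 13. Of the 22 collagen calls, 21 kept their direction under every alternative and that of Col22a1 in mutant smoke against room air did not. The 12 arrays lay on 3 slides that each held all groups, and all 22 changes had the same sign within each slide.

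Col8a1 encodes a short-chain, network-forming collagen of vessel walls and fibroblasts. Its level was 2.25, 2.19, 2.01 and 2.36 in WT room air replicates 1 to 4, and 2.15, 2.25, 2.17 and 2.12 in WT smoke. In mutant smoke it was 1.15, 1.51, 1.40 and 1.08. Every mutant array lay below every WT array, while the WT groups overlapped. The change in mutant against WT smoke was -0.89 ± 0.10 (SE), 1.85-fold lower (limma adjusted p = 0.000629), and against room air -0.92 ± 0.10 (adjusted p = 0.000173). Smoke in WT mice gave -0.03 (adjusted p = 0.921). The probe of these values lies at chr16:57548065-57548124 of build mm8. A second probe at chr16:57545503-57545562 gave -0.87 in mutant against WT smoke and -0.75 against room air. The mutant minus WT smoke difference was -0.67 within slide 2, -0.93 within slide 3 and larger in size within slide 1. Col8a1 passed in both mutant comparisons under all 24 alternative settings, from -0.96 to -0.82 against WT smoke with adjusted p up to 0.0403. Its partner chain Col8a2, measured by a single probe, showed 0.03 (adjusted p = 0.883) and -0.14 (adjusted p = 0.31).

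Type VI chains make the beaded filaments that link cells to the interstitial matrix. Col6a1 had levels of 1.17, 1.44, 1.26 and 1.33 in WT room air and 1.22, 1.43, 1.34 and 1.28 in WT smoke. In mutant smoke they were 1.81, 1.99, 1.55 and 1.87, above all 8 WT arrays. The change was 0.48 ± 0.09, 1.40-fold, against WT smoke (adjusted p = 0.0133) and 0.50 ± 0.09 against room air (adjusted p = 0.0039). Its probe lies at chr10:76152870-76152929 of mm8.

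Col6a2, the neighbouring gene and a chain of the same trimer, had levels of -0.09, 0.10, -0.12 and 0.10 in WT room air and -0.17, -0.12, -0.13 and -0.03 in WT smoke. The mutant arrays read 0.45, 0.64, 0.14 and 0.25. They lay above all WT arrays, replicate 3 by a narrow margin. Col6a2 changed by 0.49 ± 0.10 against WT smoke (adjusted p = 0.018) and by 0.38 ± 0.10 against room air (adjusted p = 0.025). Its 2 probes disagreed. The probe used, chr10:76039902-76039961 of mm8, gave 0.49 while the other, chr10:76045538-76045597, gave 0.05 (adjusted p = 0.828), and with the mean of both probes neither mutant call remained. Without WT smoke replicate 1 the adjusted p was 0.0531. The call against room air was lost without WT room air replicate 1 or 3 or mutant replicate 1, with adjusted p up to 0.066.

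Col6a3, the long chain of type VI, had levels of 2.77, 3.02, 2.69 and 2.86 in WT room air, 2.69, 3.03, 3.00 and 2.95 in WT smoke, and 3.12, 3.61, 2.99 and 2.99 in mutant smoke. Its groups overlapped, and mutant replicate 2 stood above all other arrays. The change of 0.27 ± 0.14 against WT smoke (adjusted p = 0.297) and 0.34 ± 0.14 against room air (adjusted p = 0.113) did not pass. The latter passed with the arrays scaled to the median (0.42, adjusted p = 0.0471) and, just inside the threshold, with the slide as a block (0.35).

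Col7a1 makes the anchoring fibrils that fasten epithelial basement membranes to the stroma. Levels were 1.77, 1.60, 1.66 and 1.88 in WT room air, 1.51, 1.61, 1.59 and 1.56 in WT smoke, and 2.09, 2.05, 2.04 and 2.05 in mutant smoke. The mutant arrays spread over an SD of 0.02 and lay above every WT array. Col7a1 changed by 0.49 ± 0.06 against WT smoke, 1.40-fold (adjusted p = 0.00132), and by 0.33 ± 0.06 against room air (adjusted p = 0.00429). In WT mice smoke gave -0.16 (adjusted p = 0.178). The probe, chr9:108841747-108841806 of mm8, lies on the chromosome of Rora, 39.7 Mb from the Rora probe.

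Among the membrane-spanning collagens, Col17a1, a component of hemidesmosomes in basal epithelial cells, read -0.26, -0.28, -0.21 and -0.34 in WT room air and -0.34, -0.37, -0.49 and -0.31 in WT smoke. Mutant arrays read -0.02, 0.10, -0.28 and 0.14, so that replicate 3 lay within the range of room air. The change against WT smoke was 0.36 ± 0.09 (adjusted p = 0.0311), and a second probe gave 0.39 (adjusted p = 0.0848). This call was lost without any 1 of 6 arrays (mutant replicates 1, 2 or 4, WT smoke replicates 1, 2 or 3), with values from 0.31 to 0.45 and adjusted p up to 0.0859 over the arrays left out. The 5 markers of basal epithelium had no call in this comparison, and their summed signal ranged from 0.57 to 1.51 times the 75th percentile in mutant and 0.404 to 0.905 in WT smoke; its part in the Col17a1 difference was not tested. Col13a1, a transmembrane collagen of cell adhesion sites, read 2.43, 2.60, 2.49 and 2.68 in room air, 2.53, 2.59, 2.64 and 2.60 in WT smoke, and 2.94, 2.83, 2.65 and 3.03 in mutant smoke. It rose by 0.31 ± 0.08 against room air (adjusted p = 0.0251), and its change of 0.27 against WT smoke did not pass (adjusted p = 0.079) although the arrays did not overlap. The room-air call was lost without WT room air replicate 1 or 3 or mutant replicate 1 or 4 (0.26 to 0.38 over the arrays left out), with the slide as a block (0.32, adjusted p = 0.0502) and with only the 2 groups compared in the fit. Col23a1, at 0.17 in WT smoke against room air (adjusted p = 0.142) and -0.12 in mutant against WT smoke (adjusted p = 0.281), and Col25a1 passed in no comparison. With each probe fitted on its own, another Col23a1 probe passed in both of these comparisons, at 0.26 (adjusted p = 0.045) and -0.25 (adjusted p = 0.0454), and the remaining one did not, at 0.43 (adjusted p = 0.176) and -0.30 (adjusted p = 0.31).

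Fibril-associated collagens bind to the surface of fibrils. Col12a1 had levels of -0.39, -0.53, -0.73 and -0.62 in WT room air, -0.51, -0.26, -0.38 and -0.23 in WT smoke, and -0.88, -0.55, -0.92 and -0.85 in mutant smoke. Mutant and WT smoke did not overlap, with mutant replicate 2 next to WT smoke replicate 1, and the room-air range overlapped both. Against WT smoke the change was -0.46 ± 0.10 (adjusted p = 0.0235), and against room air -0.23 (adjusted p = 0.139). A second probe gave -0.31 against WT smoke (adjusted p = 0.205). The call was lost without mutant replicate 1, 3 or 4 or WT smoke replicate 2, 3 or 4, with values of -0.54 to -0.42 and adjusted p up to 0.0665. Col12a1 lies on chromosome 9 at chr9:79385147-79385206 of mm8, 10.2 Mb from the Rora probe.

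Col14a1 binds type I fibrils and regulates their diameter. It read 0.45, 0.64, 0.62 and 0.28 in WT room air, 0.25, 0.06, 0.16 and 0.11 in WT smoke, and 0.44, 0.69, 0.64 and 0.51 in mutant smoke. WT smoke lay below both other groups, which overlapped each other. The change was -0.35 ± 0.09 in WT smoke against room air (adjusted p = 0.0458) and 0.42 ± 0.09 in mutant against WT smoke (adjusted p = 0.0187). Both rest on the same WT smoke arrays. Mutant smoke against room air gave 0.08 (adjusted p = 0.607). The probe lies at chr15:55350660-55350719 of mm8.

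**Figure D2:**
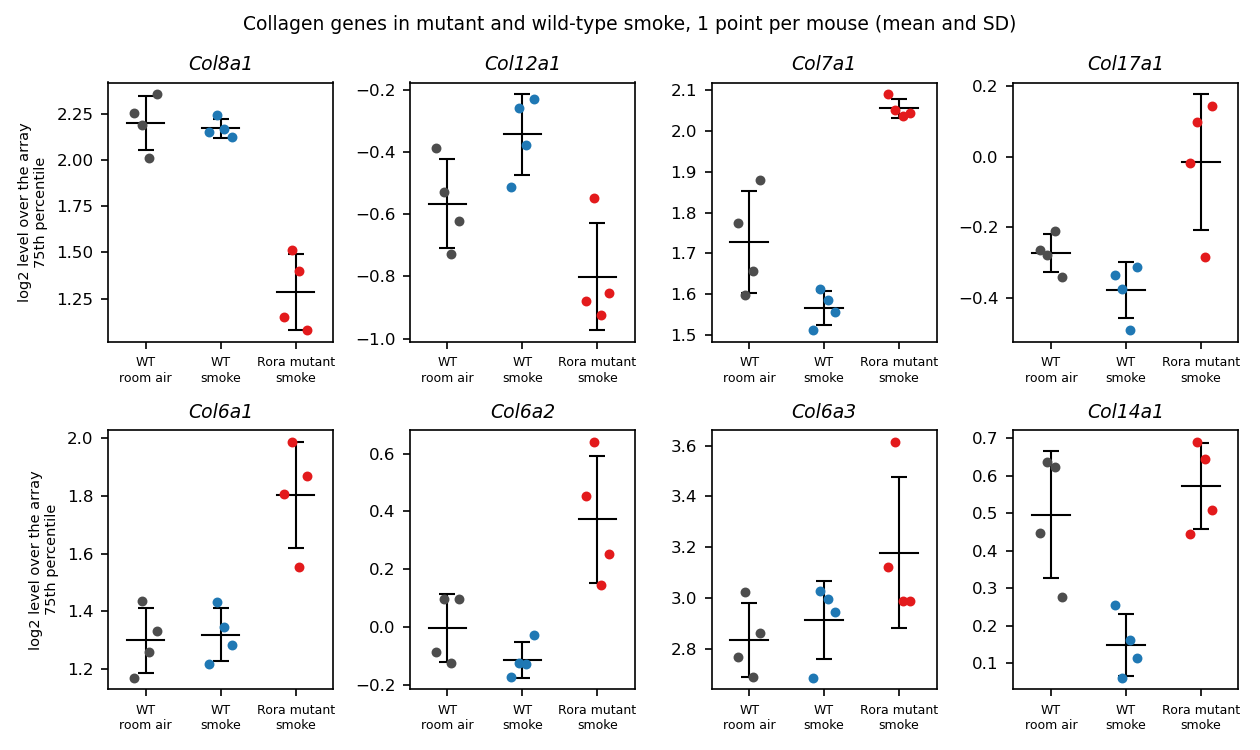
Levels (log2 over the array's 75th percentile, y axis) of 8 collagen genes in the 3 groups, 1 point per mouse with the mean and SD of 4 mice. Mutant points of Col8a1 have levels from 1.08 to 1.51 and lie below all WT points. Those of Col6a1 and Col7a1 lie above all WT points, and Col14a1 is lowest in WT smoke.

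Col22a1, a collagen of tissue junctions such as those of muscle and tendon, was 1.54-fold lower in mutant smoke than in room air (-0.62 ± 0.13, adjusted p = 0.00724). Its second probe gave -0.60 (adjusted p = 0.0257). The levels were -4.10, -4.09, -3.98 and -4.00 in room air and -4.88, -4.45, -4.47 and -4.84 in mutant smoke, without overlap, and -4.49, -4.18, -4.38 and -3.95 in WT smoke. Mutant against WT smoke gave -0.41 (adjusted p = 0.0849). This is a dim signal, and with normexp background correction the change was 0.07 (adjusted p = 0.968), in the opposite direction. Col9a2, Col9a3, Col16a1 and Col20a1 passed in no comparison; Col16a1 did not overlap between mutant and WT smoke (0.16, adjusted p = 0.184).

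Type IV collagens are the network of the basement membrane, where Col4a1 and Col4a2 chains assemble together in most tissues and Col4a3, Col4a4 and Col4a5 form the network of the alveolar and glomerular basement membranes. All 6 were higher in mutant than in WT smoke and none passed in the main fit, with a median of 0.19. Against room air 5 of 6 rose (83.3%, against 6.67% of all genes), by 0.28 to 0.39, and Col4a6 did not (-0.11, adjusted p = 0.426). In WT smoke against room air none of the 6 passed, from -0.17 to 0.23, with a median of 0.08.

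Col4a1 read 2.73, 2.64, 2.55 and 2.81 in WT room air, 2.50, 2.65, 2.72 and 2.81 in WT smoke, and 2.93, 3.11, 2.89 and 2.95 in mutant smoke. The mutants lay above both WT groups. The change was 0.29 ± 0.08 against room air (adjusted p = 0.0322) and 0.30 ± 0.08 against WT smoke (adjusted p = 0.0517), where its second probe gave 0.36 (adjusted p = 0.0325). The Col4a1 change against WT smoke passed in 7 of 24 alternative settings, among them quantile and median scaling and the deposited log2 matrix. Col4a2, which shares that promoter stretch, read 3.35, 3.42, 3.38 and 3.59 in room air, 3.34, 3.58, 3.64 and 3.60 in WT smoke and 3.84, 3.90, 3.60 and 3.78 in mutant smoke. Mutant replicate 3 alone lay within the WT smoke range. Col4a2 changed by 0.34 ± 0.09 against room air (adjusted p = 0.0206) and by 0.24 against WT smoke (adjusted p = 0.131).

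Col4a3 and Col4a4, neighbours on chromosome 1, rose by 0.30 ± 0.08 (adjusted p = 0.0237) and 0.39 ± 0.09 (adjusted p = 0.0109) against room air. Col4a3 stood at 0.52, 0.68, 0.58 and 0.76 in room air, 0.68, 0.84, 0.80 and 0.85 in WT smoke and 0.90, 1.07, 0.76 and 1.01 in mutant smoke. Col4a4 stood at 1.15, 1.15, 1.23 and 1.27 in room air, 1.43, 1.46, 1.38 and 1.42 in WT smoke and 1.59, 1.30, 1.69 and 1.76 in mutant smoke. In both genes the mean of WT smoke lay between those of the other groups, and for Col4a4 neither smoke group overlapped room air. Smoke in WT mice gave 0.16 (adjusted p = 0.324) for Col4a3 and 0.23 (adjusted p = 0.18) for Col4a4. The second probe of each gene also passed against room air, at 0.32 and 0.24.

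Col4a5, on the X chromosome, rose by 0.28 ± 0.07 against room air (adjusted p = 0.0248), from levels of -1.80, -1.55, -1.65 and -1.81 to -1.46, -1.46, -1.28 and -1.50. Its neighbour Col4a6 fell short of any call in all 3 comparisons, with room-air levels of 1.10, 1.07, 0.91 and 0.91 and mutant levels of 0.97, 1.06, 0.74 and 0.78. Their promoter windows lie 842 bases apart on opposite strands. Both genes are X-linked, and room air was the group in which the sex-linked genes went against the label; their part in these values was not tested. Of the 5 calls against room air, that of Col4a4 was kept whichever array was left out. The others were lost without single arrays: Col4a1 without 6 of the arrays (room air 1, 2 or 3, mutant 1, 2 or 4; 0.24 to 0.33), Col4a2 without 5 (room air 1, 2 or 3, mutant 1 or 2; 0.30 to 0.41), Col4a3 without 4 (room air 1 or 3, mutant 2 or 4; 0.25 to 0.36) and Col4a5 without 3 (room air 1 or 4, mutant 3; 0.23 to 0.33). The adjusted p then reached at most 0.0841.

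**Figure D3:**
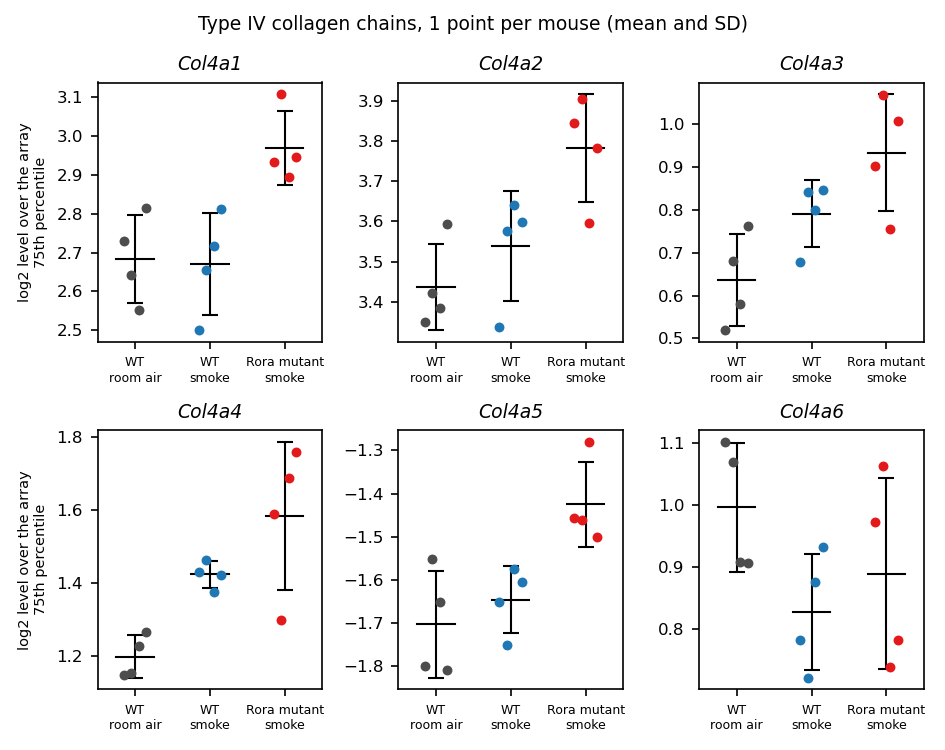
Levels (log2 over the array's 75th percentile, y axis) of the 6 type IV collagen genes in the 3 groups, 1 point per mouse with the mean and SD of 4 mice. In 5 of the 6 panels the mutant mean stands 0.28 to 0.39 above the room-air mean, and in that of Col4a6 it stands 0.11 below.

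Laminins and other partners of type IV collagen in the basement membrane were listed beside it. Of 13 measured partners, 6 rose (46.2%, against 6.67% of all genes) and none fell in mutant smoke against room air, with a median of 0.20. Lama1, Lamb1, Lama5, Agrn and Lamb3 were among the 6. Lama1, the laminin chain of early basement membranes, was well above background on none of the room-air arrays and on all 4 of each smoke group. Against the room-air detection limit, on each array the lowest level marked well above background or the spot's own if higher, it was at least 3.92-fold higher in mutant smoke (adjusted p = 0.000149). In mutant against WT smoke 2 partners rose (15.4%, against 2.48% of all genes), among them Lamb1 (0.33 ± 0.06, adjusted p = 0.0138). In WT smoke against room air 2 rose (15.4%, against 2.31% of all genes), among them Lama1 (at least 2.50-fold higher, adjusted p = 0.00345). The list's median change was 0.15 and 0.08 in these comparisons.

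Fibrillar collagens carry tensile load, and by the probes used 10 of the 11 were lower in WT smoke than in room air, with a median of -0.30. Of the 11, 2 passed (18.2%, against 4.86% of all genes). Col2a1, the fibrillar collagen of cartilage, read -2.31, -2.03, -2.35 and -2.56 in room air and -2.84, -3.15, -2.70 and -2.89 in WT smoke, without overlap. It fell by 0.58 on the log2 scale (SE 0.15, adjusted p = 0.0478), but its 2 probes disagreed. The probe used, chr15:97804088-97804147 of mm8, gave that value while the overlapping probe chr15:97804108-97804167 gave -0.02 (adjusted p = 0.959). Col11a2, a minor chain of cartilage fibrils, read -3.26, -3.30, -3.28 and -3.01 in room air and -3.38, -3.48, -3.70 and -3.80 in smoke. Its change was -0.38 ± 0.10 (adjusted p = 0.0458), and its second probe gave -0.03 (adjusted p = 0.958). In mutant smoke Col2a1 read -2.72, -2.18, -2.42 and -2.79 and Col11a2 -3.42, -3.36, -3.29 and -3.43, overlapping WT smoke in both genes; against WT smoke the changes were 0.37 (adjusted p = 0.18) and 0.22 (adjusted p = 0.224).

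The third smoke call was that of Col14a1, given above. None of the 3 passed with the slide as a block (adjusted p = 0.0541 for Col14a1, 0.063 for Col2a1 and 0.0889 for Col11a2), although each was lower in smoke within every slide. With the arrays scaled to the median, with normexp background correction or without the filter on dim probes none of the 3 passed either. Leaving out 1 array ended the calls of Col14a1 and Col11a2 for 11 of the 12 arrays and that of Col2a1 for 10. Col14a1 kept its call without WT room air replicate 4, Col11a2 without WT smoke replicate 1, and Col2a1 without mutant replicate 2 or 4, and the values ran from -0.42 to -0.30, -0.45 to -0.31 and -0.67 to -0.49.

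Of 10 cartilage markers 4 had a kept probe. All 4 had lower means in WT smoke than in room air, and 1 of them passed: Sox9, a transcription factor of cartilage that airway epithelium also expresses, which fell by 0.66 on the log2 scale (adjusted p = 0.0339). The summed signal of the 4 was 0.140 to 0.199 times the 75th percentile in room air, 0.101 to 0.127 in WT smoke and 0.102 to 0.148 in mutant smoke. The cartilage genes Matn1, Matn3, Cnmd, Hapln1, Ucma and Epyc had no kept probe. The part of cartilage in the Col2a1 and Col11a2 values was not tested.

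Col1a1, Col1a2 and Col3a1, the chains of types I and III, passed in no comparison by the probes used. Col1a1 read 3.71, 4.03, 3.75 and 3.87 in room air, 3.36, 3.53, 3.64 and 3.55 in WT smoke, and 3.53, 4.24, 3.61 and 3.31 in mutant smoke. WT smoke lay wholly below room air, and the mutants spanned both. The change was -0.32 ± 0.16 in WT smoke against room air (adjusted p = 0.332) and 0.15 in mutant against WT smoke (adjusted p = 0.659). Of its other probes, 1 gave 0.14 (adjusted p = 0.605) and 1 gave -0.28 (adjusted p = 0.598) in mutant against WT smoke.

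Col3a1, the chain of type III, read 3.71, 4.08, 3.74 and 3.96 in room air, 3.35, 3.50, 3.42 and 3.57 in WT smoke, and 3.36, 4.22, 3.61 and 3.25 in mutant smoke. Its change in WT smoke against room air was -0.41 ± 0.18 (adjusted p = 0.238), without overlap. Col1a2, the second chain of type I, read 5.11, 5.52, 5.39 and 5.36 in room air, 5.24, 5.13, 5.20 and 5.26 in WT smoke, and 4.83, 5.47, 5.12 and 4.58 in mutant smoke, with overlap among all groups. It changed by -0.34 ± 0.16 in mutant smoke against room air (adjusted p = 0.163), where its second, dim probe gave -0.79 (adjusted p = 0.00396). With the mean of both probes the change was -0.57 and passed (limma adjusted p = 0.00925).

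The mutant mice differed among themselves in these 3 genes. Replicate 2 was the highest of the 4 and replicate 4 the lowest in each. Without mutant replicate 2 the collagen calls of mutant smoke against room air became 6 higher and 8 lower, among 1078 higher and 1826 lower of all genes: Col1a1 (-0.36, adjusted p = 0.038), Col1a2 (-0.50, adjusted p = 0.023), Col3a1 (-0.47, adjusted p = 0.0189), Col5a3 (-0.35, adjusted p = 0.035) and Col12a1 (-0.32, adjusted p = 0.0394) then passed as lower. With all arrays none of these 5 passed by the probes used, though Col1a2 passed with the mean of its probes. The median SD of the collagens over the mutant mice was 0.18, against 0.12 in room air and 0.09 in WT smoke, and over all genes it was 0.12, 0.11 and 0.11. The difference in spread was not tested.

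**Figure D4:**
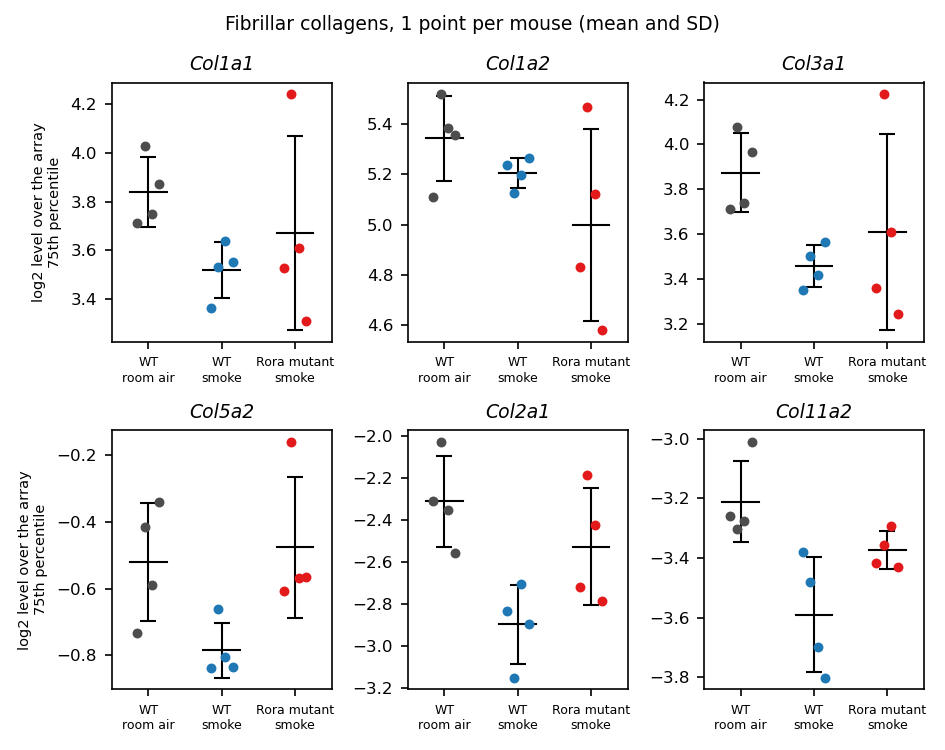
Levels (log2 over the array's 75th percentile, y axis) of 6 fibrillar collagen genes in the 3 groups, 1 point per mouse with the mean and SD of 4 mice. WT smoke lies below room air without overlap for Col1a1, Col3a1, Col2a1 and Col11a2, and the mutant points of Col1a1 run from 3.31 to 4.24.

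The remaining fibrillar chains passed in no comparison. Col5a2, a chain that helps to start fibrils and a neighbour of Col3a1, gave 0.31 ± 0.11 in mutant against WT smoke (adjusted p = 0.129) without overlap. Col24a1 gave 0.29 in WT smoke against room air (adjusted p = 0.655) by the probe used, and its second probe gave -0.52 (adjusted p = 0.258). In mutant against WT smoke that second probe gave 0.70 (adjusted p = 0.0952). The Col11a1 spot was above background on 3 arrays in room air, on none in WT smoke and on 2 in mutant smoke. Its room-air levels were -5.81, -6.10, -6.94 and -5.79, and WT smoke replicate 4 read -6.11, within that range, so no fold is given. The fitted changes had adjusted p = 0.408 in WT smoke against room air and 0.831 in mutant against WT smoke. By the probes used, Col5a1, Col5a3 and Col27a1 changed by -0.30 to 0.28 over the 3 comparisons. Other probes differed in sign. In mutant against WT smoke the second Col5a3 probe gave 0.67 (adjusted p = 0.404), where the probe used gave -0.12. Another Col27a1 probe gave -0.15 there (adjusted p = 0.487), where the probe used gave 0.28.

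The multiplexins Col15a1 and Col18a1 are collagens of basement membrane zones that carry sugar chains and release endostatin-like fragments. Col15a1 read -2.66, -2.59, -2.86 and -2.78 in room air, -3.20, -3.24, -3.22 and -3.18 in WT smoke, and -3.26, -2.88, -3.31 and -3.89 in mutant smoke. Both smoke groups lay below every room-air array. It fell by 0.61 on the log2 scale in mutant smoke against room air (SE 0.16, adjusted p = 0.024). The change of -0.49 in WT smoke did not pass (adjusted p = 0.119). It did pass without mutant replicate 4 and with only the 2 groups compared in the fit, where the mutant call was lost. Without WT room air replicate 1 or 2 the mutant call was also lost (adjusted p up to 0.064, with -0.76 to -0.43 over the arrays left out). With normexp background correction the mutant change shrank to -0.13. Col18a1 changed by -0.05 to 0.07 over the 3 comparisons by the probe used, and by 0.06 to 0.14 by its second probe. It passed in none of them.

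Genes that modify, process, bind or degrade collagen were counted from lists. Of 22 measured hydroxylases, glycosyltransferases and chaperones, 1 passed in WT smoke against room air: P4ha1, a catalytic subunit of prolyl 4-hydroxylase, fell by 0.34 (adjusted p = 0.0206). In mutant against WT smoke Colgalt1, which adds galactose to hydroxylysine, rose by 0.24 (adjusted p = 0.0218). Against room air Colgalt1, Fkbp14 and Tmem38b rose and P4ha1 fell. The list's passing share of 4.55%, 4.55% and 18.2% in these comparisons lay near the 4.86%, 6.04% and 16.7% of all genes. Of 14 genes of procollagen processing and cross-linking none passed in the comparisons with WT smoke as a partner. In mutant smoke against room air Lox, the lysyl oxidase that cross-links collagen and elastin, rose by 0.64 (adjusted p = 0.00581). Adamts3 and Tgm2 also rose there and Pcolce2 fell. These 4 genes are 28.6% of the list, against 16.7% of all genes.

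Of 17 measured collagen-binding proteoglycans and matricellular proteins, 2 rose and 2 fell in mutant against WT smoke. Tnc, tenascin C, rose by 1.03 ± 0.15 (adjusted p = 0.00296) and Matn2 by 0.46 (adjusted p = 0.00434). Fmod, fibromodulin, which binds fibrils of type I, fell by 0.45 (adjusted p = 0.0298), and Tnxb by 0.37 (adjusted p = 0.0383). Against room air Tnc, Matn2 and Thbs1 rose, and Fmod (-0.76), Lum (-0.72) and Tnxb (-0.47) fell. In WT smoke against room air Thbs1, thrombospondin 1, rose by 0.64 (adjusted p = 0.00598). The list's passing share was 23.5%, 35.3% and 5.88% in this order of comparisons, against 6.04%, 16.7% and 4.86% of all genes.

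Among 10 collagen receptors and uptake genes, Itgb1 rose by 0.20 and Lair1, an inhibitory collagen receptor of leukocytes, fell by 0.35 in mutant against WT smoke. In WT smoke against room air, Gp6, the collagen receptor of platelets, rose by 1.47 (adjusted p = 0.000821) and Itga11, an integrin chain that binds fibrillar collagen, fell by 0.33 (adjusted p = 0.0231). Against room air, mutant smoke had Gp6 higher and Lair1, Ddr1 and Ddr2 lower. The receptor list's passing share was 20.0%, 20.0% and 40.0% in this order of comparisons, against 6.04%, 4.86% and 16.7% of all genes. The list of 11 genes of collagen degradation held proteases and also the Timp genes, which encode protease inhibitors. Of these 11, Ctss rose and Mmp9 and Timp2 fell in mutant against WT smoke (0.38, -0.51 and -0.40). Ctsk, the collagen-cleaving cathepsin K, rose by 0.54 in WT smoke against room air and by 0.83 in mutant smoke against room air. Mutant smoke against room air also had Ctss and Mmp14 higher and Mmp9 and Timp2 lower. The degradation list's passing share was 27.3%, 9.09% and 45.5% in the same order, beside the same shares of all genes.

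Markers of the cells that make collagen were set beside the changes. Of all genes, 4.86% passed in WT smoke against room air, 6.04% in mutant against WT smoke and 16.7% in mutant smoke against room air. Of 10 fibroblast markers, Mfap4 (0.90, adjusted p = 0.00235) and Pdgfra (0.45, adjusted p = 0.0106) rose in mutant against WT smoke and 8 had no call, and none was called in WT smoke against room air. In mutant smoke against room air Mfap4 (0.79), Pdgfra (0.44) and Pdpn (0.42) rose and Thy1 (-0.45) fell. There 6 of the 10 had lower means, with a median change of -0.08. Pdpn also stood in the list of alveolar type 1 markers. The summed fibroblast signal was 339 to 408 times the 75th percentile in mutant smoke, 370 to 457 in WT smoke and 363 to 408 in room air. Of 7 smooth muscle markers none passed in any comparison, with sums of 69.5 to 88.0, 60.6 to 79.6 and 81.8 to 88.3 in the same order. All 7 had lower means in WT smoke than in room air, with a median change of -0.23. In 3 of them (42.9%) the arrays of these 2 groups did not overlap, against 12.9% of all genes. Skeletal muscle markers rose in 3 of 5 in mutant against WT smoke (Acta1, Ckm and Myh2), with sums of 1.85 to 2.32 in mutant smoke, 0.978 to 1.77 in WT smoke and 1.52 to 2.34 in room air. All 5 had lower means in WT smoke than in room air, with a median change of -0.39, and 1 passed as lower. In mutant smoke against room air none of them rose and 1 fell. Adipocyte markers rose in 2 of 5 in mutant against WT smoke (Cidec and Retn), with sums of 19.3 to 22.1, 8.59 to 23.8 and 15.1 to 23.9, and Lep had no kept probe. All 7 markers of alveolar type 1 cells and all 6 of type 2 cells, which define lung tissue, were measured above background. Of the type 1 markers 2 (Ager and Pdpn) rose in mutant smoke against room air, where all 7 had higher means, with sums of 342 to 373 in mutant smoke, 339 to 373 in WT smoke and 323 to 350 in room air. Of the type 2 markers 3 (Lamp3, Sftpa1 and Sftpd) fell in WT smoke against room air and Lamp3 fell in mutant smoke against room air, with sums of 888 to 944, 706 to 1159 and 876 to 1069 in the same order. Of 8 endothelial markers none rose and 1 fell in each mutant comparison, and none passed in WT smoke against room air. None of 5 pericyte, 5 mesothelial and 5 cardiac muscle markers passed in any comparison. All 5 cardiac markers had higher means in mutant than in WT smoke, and all 5 had lower means in WT smoke than in room air. Ciliated cell markers fell in 1 of 5 in mutant against WT smoke and in 3 of 5 in mutant smoke against room air. The part of these cells in the collagen values was not tested.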

How the data were processed

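Whole-lung RNA of 12 mice was labelled with Cy3 and hybridised to Agilent 4x44K arrays, 4 per group, from 100 ng of RNA per the labels. The authors extracted the spots with Agilent Feature Extraction 9.5.3.1, per the submitters' processing notes. Per the file headers, the deposited processed signal is a linear intensity that Feature Extraction had background-subtracted array by array, without scaling between arrays. The deposited raw spot mean and local background are uncorrected intensities, and the deposited spot flags are other values, 0 or 1. A deposited matrix of the authors holds log2 intensities; its columns have identical quantiles, so it was taken as quantile-normalized. Probe positions follow the scanner files and build mm8; the exon of a probe was not used here.

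The 43379 spots that were no controls gave 41174 probes after averaging spots of a probe without the scanner's outliers. The array's 75th percentile was subtracted from log2 of the processed signal. A probe also needed values on 3 arrays per group, and 30189 probes were kept. Symbols were updated through a RefSeq table, except for 4269 kept probes that retained their listed name. The probe with the highest mean level stood for its gene (19823 genes). Array number and signal over background (70.1% to 74.8% of spots) limit the precision.

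The 3 comparisons came from a single limma 3.58.1 model (lmFit, eBayes; R 4.3.3, data.table version 1.17.8) with a mean per group; tests were two-sided and p-values were adjusted over all genes by Benjamini-Hochberg, with 0.05 as the threshold. An error written ± is an SE for a change and an SD over 4 mice for a level. Where no array of a group detected a gene, the fold is a bound against the lowest detected signal on those arrays. The fit was tested on simulated data. Promoter windows were searched and plots drawn in Python 3.11.15 (matplotlib 3.10.9).

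Alternatives were the normexp background correction with an offset of 50, quantile and median scaling, the deposited log2 matrix, other filters and probe rules, slide and replicate number as blocks, and leaving out arrays. Statistics are given for collagen genes that passed in any comparison, for the 5 largest changes in each direction and comparison, and for types I, III, IV and VI. Some levels and changes of these genes are not reported here. Of each list of other genes, at most 5 that passed are given by smallest p in each comparison. Some list members that meet this rule are not reported here but stay in the counts. The members and lists were chosen with earlier results of these data known.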

Additional observations from a re-analysis of the deposited data

Results flagged for a closer look

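In 4 of the 108 groups of 4 mice (36 genes in 3 groups), 1 mouse stood far from the other 3 by Dixon's criterion; chance gives about 1 in 20 groups. Col11a1 had a level of -6.11 in WT smoke replicate 4, with the others between -6.85 and -6.76, all in the dim range where no WT smoke array was well above background. Col11a2 had -3.01 in WT room air replicate 4, with the others between -3.30 and -3.26, and the call of Col11a2 in WT smoke against room air was among those lost without that mouse. Col5a2 had -0.16 in mutant smoke replicate 2, with the others between -0.61 and -0.57; this is the mouse that was also highest in Col1a1, Col1a2 and Col3a1. Col9a2 had -4.27 in mutant smoke replicate 1, with the others between -4.57 and -4.55.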

How the results depend on the processing

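With normexp background correction, genes passing fell to 53 in WT smoke against WT room air, 28 in mutant against WT smoke and 181 in mutant smoke against room air. Collagens passing were then 0 lower in WT smoke against room air, 0 higher and 1 lower in mutant against WT smoke, where the collagen median was 0.26 and that of all genes 0.10, and 0 higher and 1 lower in mutant smoke against room air. Col22a1 in mutant smoke against room air turned to 0.067 (adjusted p = 0.968); the cause was not tested. No collagen was called lower in WT smoke against room air (0) with median scaling, no filter on dim probes, the slide block or the replicate block, and 1 was with the mean of all kept probes. Without the filter on dim probes, with 27592 genes tested, 564 genes passed in WT smoke against room air and 688 in mutant against WT smoke. With only the 2 groups compared in the fit, 746 genes passed in mutant against WT smoke, and in mutant smoke against room air 2691 did (1015 higher, 1676 lower), among which 5 collagens rose. Without WT smoke replicates 2 and 4, the arrays of highest and lowest signal, an alternative chosen after seeing the data, 333 genes passed in WT smoke against room air with 0 collagens lower, and 539 in mutant against WT smoke with 1 collagen higher and 1 lower. The fit of every probe on its own was also chosen after seeing the data. The deviations of same-numbered samples correlated at r = -0.10 to 0.22 over 12 pairs, above 0.1 in 4 of them. Their median r was 0.03, against -0.02 for samples of different numbers. Same-numbered samples were not treated as pairs in the main fit. With the replicate block all 7 collagen calls of mutant against WT smoke and all 12 of mutant smoke against room air remained. Leaving out each array in turn gave 554 to 961 genes in WT smoke against room air (0 to 1 collagens higher, 0 to 2 lower), 579 to 1143 in mutant against WT smoke (3 to 6 higher, 1 to 2 lower) and 2223 to 3226 in mutant smoke against room air (3 to 9 higher, 2 to 8 lower), with collagen medians of -0.13 to -0.08, 0.11 to 0.17 and -0.01 to 0.07.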
